A study of Mus musculus with 2 samples.

Results

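The 9 keratin genes Krt5, Krt7, Krt8, Krt10, Krt14, Krt15, Krt18, Krt19 and Krt20 were followed in mouse uterine epithelium. The rule takes them by gene symbol in the array's annotation and uses no signal, although the list was drawn up with earlier results of these data known, from 12393 genes that a probe set of a single gene represented, and each gene was read through its brightest probe set. The study compared uterine epithelial cells, freed from the uterus with trypsin early on pregnancy day 4, between control mice and mice labelled as Stat3 knockout. Stat3 encodes a transcription factor that carries signals of leukaemia inhibitory factor and related cytokines. Each group was 1 Affymetrix Mouse Genome 430A 2.0 array with pooled RNA (n = 3 per sample in the series' design text). Both samples carry a title that names Stat3 flox control mice, and genotype and description tell them apart. Of the Cre driver, the age and the strain of the mice nothing is stated in the sources used here.

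Keratins are the intermediate filament proteins of epithelia. A filament is built from pairs of a type I and a type II keratin, so every epithelial cell makes at least one of each. Simple, single-layered epithelia such as the uterine lining are known for Krt8 and Krt18, usually with Krt7 and Krt19, while Krt5, Krt14 and Krt15 mark the basal layer of stratified epithelia and Krt10 the layers above it. Among the 9 genes, Krt5, Krt7 and Krt8 are type II and the 6 others type I.

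The proximal promoters of 4 members are shown, because these genes carry the pattern of the values: Krt7 and Krt10 differed between the arrays in opposite directions, and Krt8 and Krt18, a filament pair encoded by neighbouring genes, differed little. The sequences are the 250 bases before the annotated start in RefSeq (GRCm38.p6), written along the gene. Krt7 lies at chr15:101412153-101412402 (plus strand), Krt10 at chr11:99389365-99389614 (minus strand), Krt8 at chr15:102004343-102004592 (minus strand) and Krt18 at chr15:102027966-102028215 (plus strand). Capitals mark the letters TATAAA where they begin between -40 and -20 from the start on the gene's strand, the place of the TATA box.
Krt7: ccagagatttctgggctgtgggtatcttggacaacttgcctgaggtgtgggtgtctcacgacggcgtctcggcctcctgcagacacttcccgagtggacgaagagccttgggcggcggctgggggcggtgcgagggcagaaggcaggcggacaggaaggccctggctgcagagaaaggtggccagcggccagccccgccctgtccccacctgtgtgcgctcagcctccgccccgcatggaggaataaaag
Krt10: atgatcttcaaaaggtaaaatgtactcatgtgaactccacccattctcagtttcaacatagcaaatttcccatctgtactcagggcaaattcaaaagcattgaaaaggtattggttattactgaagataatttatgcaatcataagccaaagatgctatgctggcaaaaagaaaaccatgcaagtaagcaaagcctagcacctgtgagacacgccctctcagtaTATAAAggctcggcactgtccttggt
Krt8: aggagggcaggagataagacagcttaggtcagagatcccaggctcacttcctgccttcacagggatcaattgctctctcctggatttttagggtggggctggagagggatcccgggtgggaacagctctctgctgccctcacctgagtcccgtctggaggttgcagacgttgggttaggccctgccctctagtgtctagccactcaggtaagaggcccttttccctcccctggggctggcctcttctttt
Krt18: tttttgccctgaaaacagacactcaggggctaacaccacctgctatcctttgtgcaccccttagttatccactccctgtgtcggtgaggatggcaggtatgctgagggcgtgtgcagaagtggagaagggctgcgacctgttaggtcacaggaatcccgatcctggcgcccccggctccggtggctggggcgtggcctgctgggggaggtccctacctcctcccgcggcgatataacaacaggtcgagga

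The promoter of Krt7 had a GC content of 66.0% with 16 CpG dinucleotides, and that of Krt10 a GC content of 39.6% with 2. The median over 32851 promoter entries of the same length was 52.4% and 6. Krt8 had 58.0% and 3, and Krt18 had 60.4% and 12. TATAAA in the stated place was found in Krt10 (first base at -26) and in Krt20 (-29), 2 of the 7 members matched in the promoter table (Krt15 and Krt19 were not matched), beside 1.99% of all entries. The motifs TTCNNNGAA, which STAT proteins bind, and TGANTCA, which AP-1 proteins bind, were searched on both strands of the 250 bases. Neither occurred in any of the 7, and 7.02% and 6.75% of all entries held them. A match is a description of these letters only, and their absence says nothing about either factor at these genes. The search for TATAAA and the GC content were chosen after the signals were known.

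Values are MAS5 signals, the background-corrected brightness of a probe set (linear scale). Signals under a floor of 14.0, the 40th percentile of all signals, were treated as not measured. A gene under it on 1 array gets a bound ("at least"), and a gene under it on both gets no ratio. Signals of different probe sets are not comparable as amounts, so members are compared only by their difference between the arrays. Without a replicate array no difference has an error across animals, and no test was made. Pooled bulk RNA also cannot tell fewer cells of a type from less RNA per cell.

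The trimmed mean signal was 150.1 on both arrays. Stat3 read 582 on the control array against 186 on the knockout array, 3.12-fold lower, and whether its probe sets lie in the deleted part was not determined. Of 11 markers of uterine epithelium, 3 of them members here, 10 had a probe set and all 10 were over the floor on both arrays, with signals from 273 to 4220 in the control and from 277 to 4289 in the knockout. Of 6 basal or stratified epithelial markers with a probe set, also 3 of them members, 5 were under the floor on both arrays.

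At least 1 array read 6 of the 9 keratins over the floor, 5 of them on both. Among all 12393 genes, 8304 were over it on at least 1 array, 7513 of them on both, and 4089 on neither. In the knockout array 1 of the 6, Krt10, was at least 2-fold higher, beside 7.37% of the 8304 genes with a ratio. Another, Krt7, was at least 2-fold lower, beside 9.92% of those genes. The 6 had a median log2 ratio, knockout over control, of 0.115, and that of all genes with a ratio was 0.048. At a limit of 1.5-fold, 1 member was higher (19.4% of all genes) and 2 were lower (18.6%), the second being Krt20. With so few members these counts describe single genes and no trend of the group.

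**Figure D1:**
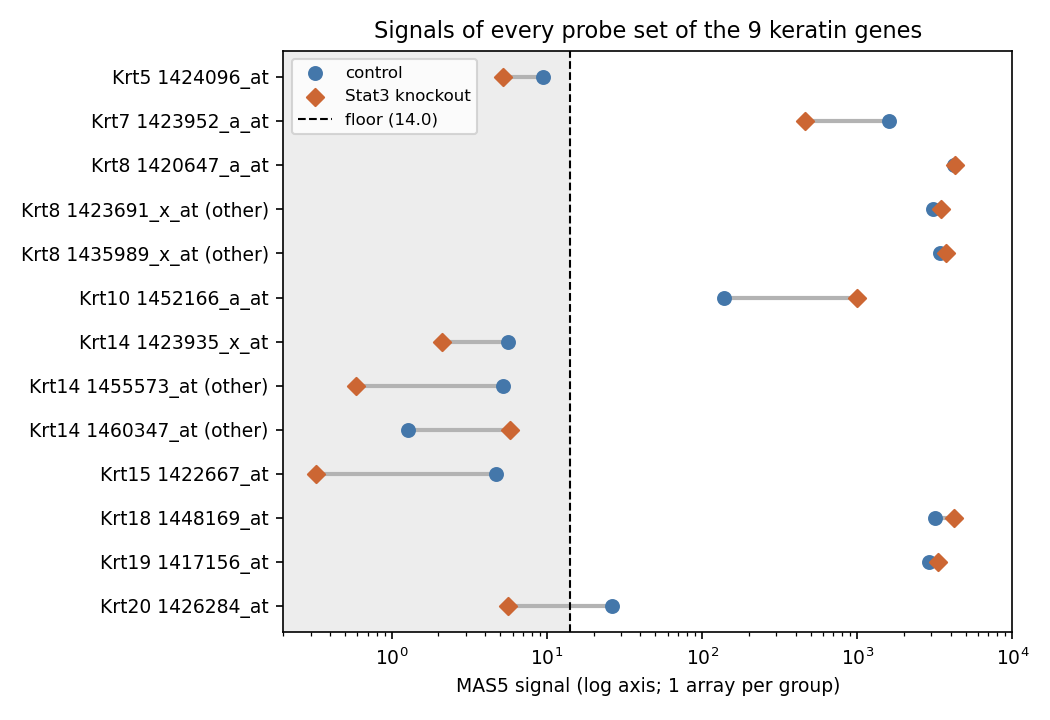
MAS5 signal (log axis) of every probe set of the 9 keratin genes on the control array (circles) and the Stat3 knockout array (diamonds), with "other" marking probe sets that were not the brightest of their gene and grey marking signals under the floor of 14.0. Krt7 moves from 1592 to 460.3 and Krt10 from 138 to 993, the 3 probe sets of Krt8 and those of Krt18 and Krt19 sit together near the right edge, and Krt5, Krt14 and Krt15 lie under the floor.

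Krt8, the type II keratin of simple epithelia, read 4220 on the control array and 4289 on the knockout array. The log2 ratio was 0.02, a 1.02-fold difference. Its 2 other probe sets read 3053 and 3444 (0.17), and 3399 and 3754 (0.14). All 3 were thus slightly brighter in the knockout array, by less than the SD of 0.31 between log2 ratios of different probe sets of the same gene (2853 genes). That SD pools genes of any signal over the floor, dim ones included, and covers neither animals nor arrays. All 3 probe sets of Krt8 are of designs that can read several transcripts or related sequences.

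Krt18, the type I partner of Krt8, read 3180 and 4202, which is 1.32-fold higher in the knockout (log2 ratio 0.40). Among the 8304 genes, 27.4% had a ratio as high or higher. Krt19, a type I keratin without the usual tail domain, read 2884 and 3329, which is 1.15-fold higher (log2 ratio 0.21), and 39.7% of genes were at or above that. These 3 simple keratins, Krt8, Krt18 and Krt19, therefore lay within 1.5-fold, with the knockout array the brighter for each. The log2 ratio of Krt19 was above that of Krt8 by 0.18, and that of Krt18 by 0.38. The SD between probe sets describes single log2 ratios, so it is no measure for these differences between 2 genes. The other probe sets of Krt8, with 0.17 and 0.14, lay nearer to Krt18.

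Krt7, the other type II keratin of simple and ductal epithelia, departed from Krt8. The control array read 1592 and the knockout array 460.3, so that 28.9% of the control value was left, a 3.46-fold lower signal (log2 ratio -1.79). As low or lower were 324 of the 8304 genes (3.90%). Both arrays measured 661 genes whose mean log2 signal lay within 0.5 of that of Krt7. Of these, 9 were at or below it, itself included, and the log2 ratios of the 661 ran from -1.05 at the 5th percentile to 1.16 at the 95th. Set against the other simple keratins on the same arrays, which no overall scaling can alter, the signal of Krt7 relative to Krt8 was 3.51-fold lower in the knockout, relative to Krt18 4.57-fold lower and relative to Krt19 3.99-fold lower. Krt7 has a single probe set, of a design that can read several transcripts, and no other one checks this value. With such designs left out, Krt7, Krt8 and Krt10 have no value.

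Krt20, a type I keratin known from intestinal and urothelial surface cells, was dim. It read 26.1 on the control array and 5.60 on the knockout array, where it was under the floor, so it was at least 1.86-fold lower. The size of this difference depends on the floor: with the floor at the 20th percentile, or with none, the log2 ratio was -2.22. Krt7 and Krt20 were the 2 members with the lower signal in the knockout array among the 6 over the floor.

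Krt10, the type I keratin of the suprabasal epidermis, gave the largest difference of the group. The control array read 138 and the knockout array 993, a 7.18-fold higher signal (log2 ratio 2.84). Only 10 of the 8304 genes, Krt10 among them, had a ratio that high (0.120%). Among 1223 genes of like mean signal no other gene reached it, and their 5th and 95th percentiles were -1.17 and 1.11. The signal of Krt10 relative to Krt18 was 5.43-fold higher in the knockout and relative to Krt7 24.8-fold higher. The gene is read by 1 probe set, of a design that can read several transcripts of it, and no other probe set checks the value.

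**Figure D2:**
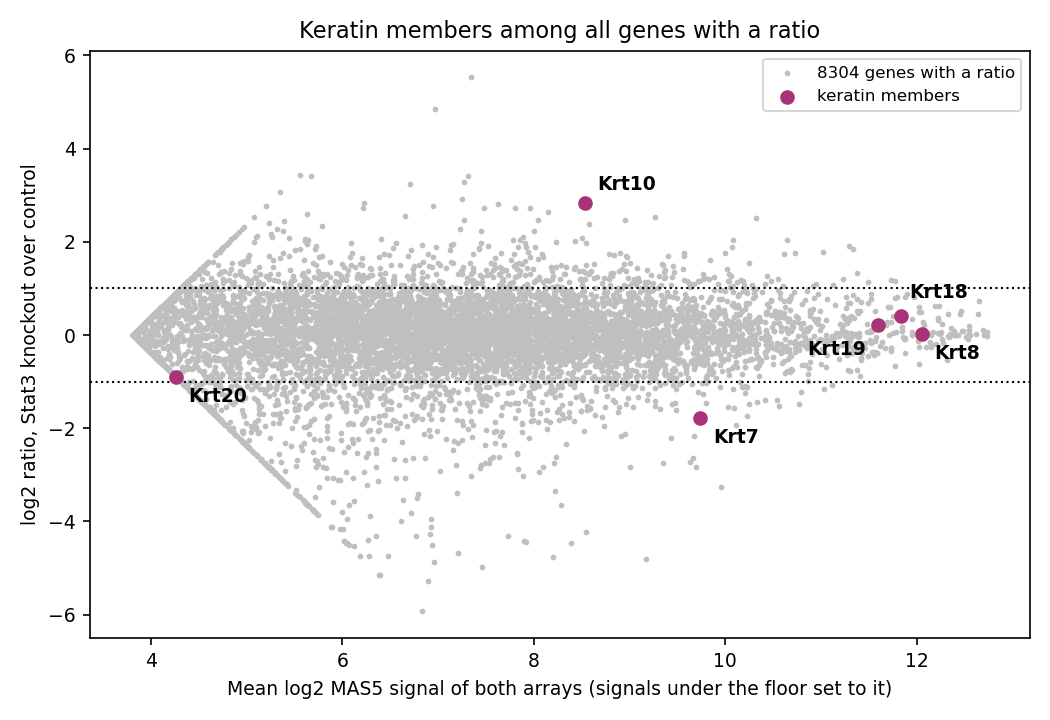
Log2 ratio of knockout over control against the mean log2 MAS5 signal of both arrays for the 8304 genes with a ratio (grey) and the 6 keratins among them (purple), with dotted lines at 2-fold. Krt10 (2.84) lies above and Krt7 (-1.79) below most genes of their signal, Krt8, Krt18 and Krt19 lie near 0 at the bright end, and Krt20 sits on the lower edge that the floor sets.

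The basal keratins were not detected over the floor. Krt5, the type II keratin of basal cells, had signals of 9.49 and 5.23. Its type I partner Krt14 had 5.61 and 2.11 in the brightest of 3 probe sets, 5.18 and 0.592 in the next, and 1.28 and 5.81 in the last, which differ in direction. Krt15, a keratin of basal and hair follicle stem cells, had 4.67 and 0.324. A probe set annotated to both Krt14 and Krt17 read 3.01 and 4.88. None of these values allows a ratio, and they show only that the 3 genes were not measured here, not that they were absent. Trp63, the transcription factor of basal cells, was under the floor on both arrays too (7.72 and 11.2).

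The type II partners that Krt10 has in epidermis were read as well. Krt1 had signals of 4.94 and 4.73, and Krt2 1.98 and 4.69, both under the floor on both arrays. The array thus held a higher Krt10 signal in the knockout without a measured signal of either partner. The other genes of cornification and stratified epithelium were mostly not measured: of 23 listed, 17 had a probe set, and 12 of these were under the floor on both arrays. Past the 2-fold limit there was 1 gene, which was lower, beside 9.92% of all genes with a ratio. Ivl (5.22 and 0.968), Lor (6.40 and 8.74) and Flg (1.52 and 1.79), which encode the cornified envelope proteins involucrin and loricrin and the filament-bundling protein filaggrin, were among those under the floor. Sfn, which encodes the keratin-binding adaptor 14-3-3 sigma, was the gene past the limit, at least 6.34-fold lower, reading 89.0 and 0.679. Of the 5 genes with a ratio, 2 were higher and 3 lower. Ovol1, a regulator of epidermal differentiation, had 40.4 and 70.4 (log2 ratio 0.80). Kdf1 had 329.5 and 176 (-0.90), but a dimmer probe set had 39.6 and 45.4 (0.20). Cstb, the brightest of the list, had 1590 and 1715 (0.11).

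Beyond the 9 members, 31 other keratin genes had a probe set and 21 of them were under the floor on both arrays. The knockout array was higher by 2-fold or more for 2 of the 10 with a ratio (7.37% of all genes) and lower for 1 (9.92%). Their median log2 ratio was 0.233. The higher ones were Krt36, a hair keratin, at least 2.74-fold higher (7.92 and 38.5), and Krt81, another hair keratin, 2.00-fold higher (19.9 and 39.9), which sits at the limit. The lower one was the hair keratin Krt84, at least 3.83-fold lower (53.8 and 11.3). All 3 were dim, and for none did another probe set exist.

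Krt12, known from the cornea, had 239.9 and 208 in its brighter probe set and 218 and 203 in the other, with log2 ratios of -0.20 and -0.10. Krt80, an epithelial type II keratin, had 38.9 and 45.9 (log2 ratio 0.24), and Krt88 27.7 and 32.3 (0.22). Krt83 was at least 1.85-fold higher, Krt35 at least 1.38-fold and Krt6a at least 1.17-fold higher, all 3 under the floor in the control, and Krt79 was at least 1.23-fold lower. Of the injury keratins, Krt16, Krt17 and Krt6b had no signal over the floor on either array. Krt6a, of the same kind, read 9.95 and 16.4 in its brightest probe set, and its others were under the floor on both arrays. Over all 16 keratins with a ratio, 3 passed the 2-fold limit upward (18.8%) and 2 downward (12.5%), beside 7.37% and 9.92% of all genes. With so few genes these counts show no trend.

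**Figure D3:**
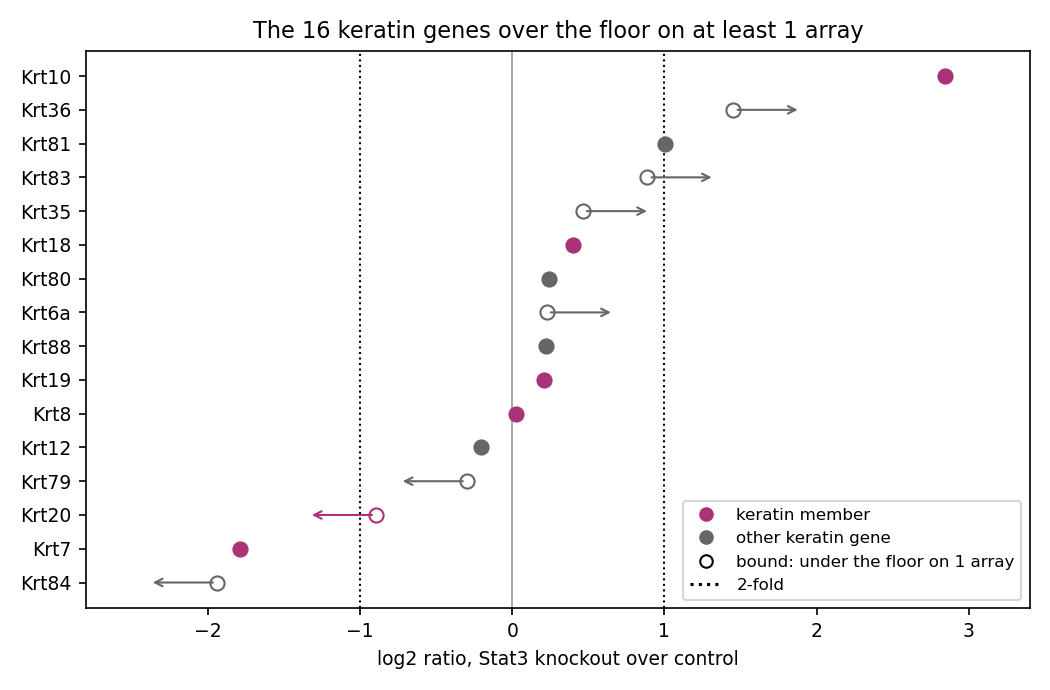
Log2 ratio of knockout over control for the 16 keratin genes over the floor on at least 1 array, members in purple and others in grey, with dotted lines at 2-fold. Open points with arrows are bounds, for genes under the floor on 1 array. Krt10 is at the top at 2.84, and Krt7 (-1.79) and the bound of Krt84 (-1.94) are at the bottom.

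Keratin genes lie in clusters, with most type I genes on chromosome 11 and the type II genes, together with Krt18, on chromosome 15. The neighbours of the 2 members past 2-fold, as far as they had a probe set, did not differ in the same way. Krt80, beside Krt7, was 1.18-fold higher in the knockout, and Krt12, beside Krt10, 1.15-fold lower. Krt20, which lies on the far side of Krt12 from Krt10, had the bound of at least 1.86-fold lower given above. Eif4b, the translation factor gene beside Krt18, had 758 and 842.

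Keratin filaments are anchored to desmosomes, hemidesmosomes and other filaments by linker proteins. Of 17 genes of that kind, 16 had a probe set and 14 were over the floor on both arrays. Of the 14, 2 passed the 2-fold limit upward (7.37% of all genes), 2 downward (9.92%) and 10 stayed within it. Their median log2 ratio was -0.013. Dst, which encodes the linker dystonin, was 3.37-fold higher (110 and 371.5), and its other measured probe set 2.75-fold higher (15.3 and 42.0). Ppl, which encodes the desmosomal linker periplakin, was 2.30-fold higher (192 and 442). Dsc2, a desmosomal cadherin gene, was 3.81-fold lower (171 and 44.9), but a dimmer probe set had 27.7 and 18.2. Eppk1, which encodes the keratin-binding protein epiplakin, was 2.12-fold lower (46.6 and 22.0).

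The 3 brightest linker genes lay within 2-fold. Dsp, which encodes desmoplakin, the main anchor of keratins at desmosomes, had 1016 and 1179. Dsg2, its cadherin neighbour in the junction, had 833 and 877, and Itga6, an integrin subunit of hemidesmosomes, had 1243 and 641, a log2 ratio of -0.96. The linker plectin, encoded by Plec, had 622 and 626.

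Of 13 other intermediate filament genes, 12 had a probe set and 8 were under the floor on both arrays. Lmnb1, a nuclear lamin gene, was 5.08-fold lower (727 and 143) and Lmnb2 2.16-fold lower (57.9 and 26.9), while Lmna had 309 and 210. Lmnb1 had a second probe set, 6.46-fold lower. All 5 proliferation markers with a probe set (Mki67, Top2a, Cdk1, Ccna2 and Birc5) passed the 2-fold limit downward (9.92% of all genes). Their log2 ratios ran from -5.28 to -4.47 with a median of -4.88. The part of proliferation in the difference of the lamins or of Krt7 was not tested. Vim, the filament gene of mesenchymal cells, had 300 and 432, a log2 ratio of 0.53.

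Signals of other cell types moved with the knockout array in part. Mesothelium, the lining of the uterine surface, also makes simple keratins. All 3 of its 5 markers that had a probe set were higher in the knockout, 2 of them by at least 2-fold (7.37% of all genes). Upk3b had 145 and 372.5, Msln 34.7 and 71.2, and Wt1 21.5 and 33.5. Their summed signal, most of it from Upk3b, was 201 on the control array and 477 on the knockout array. The 10 stromal markers summed to 2604 and 3589, with 9 over the floor on both arrays. Past 2-fold were 0 of these (7.37% of all genes higher, 9.92% lower). Dimmer probe sets of Col1a2 (50.6 and 47.8) and Col3a1 (35.6 and 32.2) were slightly lower, while those of Vim were higher. The 9 leukocyte markers summed to 709 and 825. Of 7 with a ratio, 5 were higher and 2 lower. At least 2-fold higher was 1, the complement gene C1qa (33.2 and 67.4), beside 7.37% of all genes with a ratio. Laptm5, the brightest leukocyte marker on the control array, was 1.93-fold lower (227 and 118). Such sums follow the brightest probe sets of a list. The 6 smooth muscle markers summed to 146 and 103, and the 6 endothelial ones to 56.0 and 61.0. In each of these 2 lists 4 markers were under the floor on both arrays. In each, 0 of the 2 with a ratio were past 2-fold, beside the same shares of all genes. No marker of these lists was at 0, but those under the floor count as not measured. The part of these cells in the Krt10 or Krt7 difference was not tested.

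Within the epithelium, 0 of 4 luminal markers were past 2-fold in their brightest probe set (7.37% of all genes higher, 9.92% lower). Their median log2 ratio was 0.316. For Calb1, which encodes the calcium buffer calbindin, the brightest probe set had 5018 and 8267 (log2 ratio 0.72) and a dimmer one 198 and 1192 (2.59), so that this count depends on the probe set. Of 7 gland markers 5 had a ratio. Spink1, whose product inhibits trypsin, read 14.2 and 155, or 10.9-fold higher. Its control signal lay just over the floor of 14.0, so the size is uncertain, and it has 1 probe set. Lif, the gene of leukaemia inhibitory factor, was dim and at least 2.12-fold lower (29.8 and 12.4, the latter under the floor). Its other probe set was under the floor on both arrays. The gland transcription factor gene Foxa2 had 22.0 and 23.9. Of the 10 general epithelial markers with a ratio, 7 were higher and 3 lower. Ehf was 2.35-fold higher and Elf3 had 842 and 432, both encoding ETS factors of epithelia. Epcam had 3003 and 2335 and Cdh1 2275 and 2708. Msx1 had 1234 and 2193 (log2 ratio 0.83) in its brightest probe set and 324 and 850 (1.39) in the other, which is past 2-fold. The part of a shift between gland and lumen in the keratin values was not tested.

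**Figure D4:**
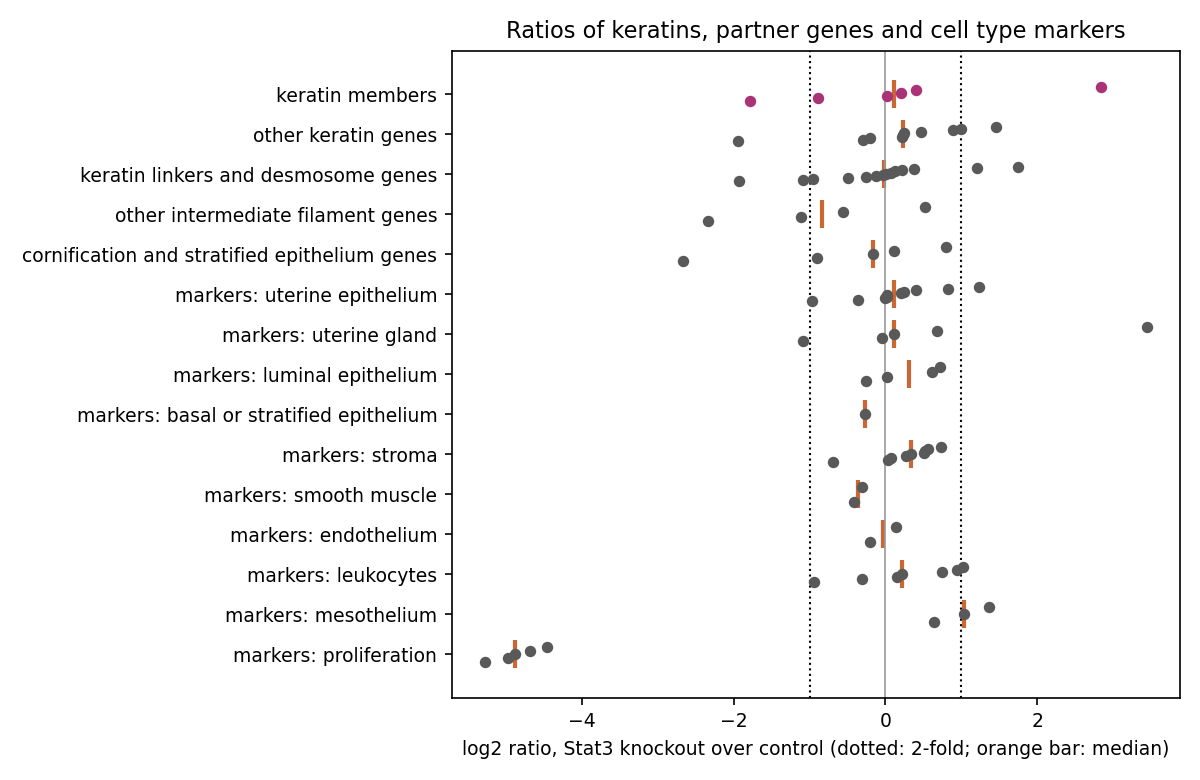
Log2 ratio of knockout over control (points) and the median (orange bar) for the genes with a ratio in each list, with bounds drawn at their bound and dotted lines at 2-fold. The keratin members spread from -1.79 to 2.84 around a median of 0.115, the mesothelial markers lie above 0 and the proliferation markers near -4.88.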

How the data were processed

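The authors deposited 1 MAS5 signal intensity per probe set and array, on a linear scale. MAS5 and Affymetrix Expression Console 1.1 are named in the submitters' processing notes. The platform annotation, which may be old, gave 1 gene for 20380 of 22690 probe sets, several for 691 and none for 1555 (64 others were controls). Current symbols came from RefSeq (GRCm38.p6) by gene ID. Each gene was represented by its brightest probe set over both arrays. Signals under the 40th percentile (14.0) were set to it, and log2 ratios without a pseudocount were counted at a limit of 2-fold. Computation used Python 3.11.15, pandas 2.3.3, numpy 2.4.6 and statsmodels 0.14.6, and was checked on data of known fold changes. With 1 array per group there is no replicate, so no p-value, SD or SE across animals is given, and the number of arrays limits the precision. All members were named, other keratins where over the floor, and list genes where past 2-fold or among the brightest linkers; further genes, such as those under the floor, were chosen after their values were seen. Members and lists were chosen with earlier results of these data known. The extraction protocol speaks of human endometrial stroma, and the mouse epithelium of the sample characteristics was used. Alternatives changed scaling, floor, probe set choice and fold limit.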

Additional observations from a re-analysis of the deposited data

How the results depend on the processing

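Krt7, Krt8, Krt10, Krt18 and Krt19 lay far over the floor, so moving or dropping the floor could not change their log2 ratios. Krt7, Krt10, Krt18 and Krt19 have 1 probe set each, so averaging probe sets could not change theirs either. Only rescaling, the floor value added to both signals and, for Krt8, averaging its probe sets could move these values. Krt7 ranged from -1.81 to -1.73, Krt10 from 2.72 to 2.91, Krt18 from 0.36 to 0.47, Krt19 from 0.16 to 0.27 and Krt8 from 0.00 to 0.11. Krt20 moved, to -2.22 with the floor at the 20th percentile or with none.

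The count of members at least 2-fold lower was 1 as reported. It was 2 (Krt7 and Krt20) with the floor at the 20th percentile (10.2% of all genes lower), with the floor value added to both signals (5.40%) and at a limit of 1.5-fold (18.6%), and 4 with no floor (14.3%), where Krt14 and Krt15 joined with signals under 6 on both arrays. Leaving out probe sets shared between transcripts gave 0 lower (9.74% of all genes) and 0 higher (7.87%), because Krt7, Krt8 and Krt10 have no other design and lost their value. The median log2 ratio of the members with a ratio was -0.438 with the floor at the 20th percentile, -0.283 with the floor value added and -0.859 with no floor, since these settings give a ratio to all 9. Signal over the floor limits Krt5, Krt14, Krt15 and Krt20. No paired analysis was possible because each group has 1 array.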
